A study of Arabidopsis thaliana with 14 samples.

Results

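The 3' untranslated region (3' UTR) is the stretch of a transcript between the stop codon and its end. In these chromatin immunoprecipitation (ChIP-seq) data on FLM, 1641 of 43676 deposited regions had their centre in an annotated 3' UTR. They comprised 930 of 19879 regions for gFLM (4.68%), 461 of 13791 for iFLMbeta (3.34%) and 250 of 10006 for iFLMdelta (2.50%). Regions were taken by annotation alone: the centre lay on chromosome 1 to 5, in a 3' UTR and in no 5' UTR, whatever the read counts were. The 3' UTR was the only annotation type at the centre of 859, 417 and 193 of them. The others lay in a coding exon, an intron or another transcript as well.

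FLM (FLOWERING LOCUS M) is a MADS-box transcription factor that delays flowering in Arabidopsis, and it is known for temperature-dependent splicing. Its splice forms FLMbeta and FLMdelta differ in which alternative exon they carry. MADS-box proteins bind CArG boxes, which are usually sought in promoters and introns. In a compact genome the 3' UTR of a gene often lies next to the start of the gene that follows, so a region can be inside a 3' UTR and upstream of another gene at the same time.

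All material was Columbia-0 seedlings in long days, collected at zeitgeber time 8 h, and an antibody to GFP was used on GFP-tagged FLM and on controls with untagged FLM. gFLM had 3 GFP and 3 control libraries from plants grown for 15 days at 16 °C. Each of the variants iFLMbeta and iFLMdelta was measured with 2 GFP and 2 control libraries from plants grown for 10 days at 23 °C. In gFLM against either variant, construct, age and temperature therefore cannot be told apart. The labels explain neither the prefixes g and i nor whether the control plants carry a transgene, and are silent on whether replicates were separate pools of plants. The p-values below therefore cover the spread between libraries alone, which may be technical. All GFP libraries of gFLM bear a single code, and so do all its controls. The label of gFLM-GFP replicate 2 does not name the antibody that the labels of the other GFP libraries name. The promoter of each construct is not stated in the labels.

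Reads in 3' UTR regions were few. In gFLM the median region held 16, 3 and 7 reads in GFP replicates 1, 2 and 3, and 5, 1 and 9 reads in control replicates 1, 2 and 3. In iFLMbeta the medians were 14 and 12 reads with GFP and 8 and 3 in the controls. In iFLMdelta they were 22 and 10 with GFP and 9 and 7 in the controls. gFLM replicate 2 was the shallowest of both kinds, with 74499 GFP and 17161 control reads over all deposited regions, against 155359 to 435306 and 180798 to 195081 in the other replicates. At counts this low a difference in most single regions was not detectable. Enrichment is given below as the log2 ratio of GFP to control reads in each replicate, with 1 read added to each count and both libraries scaled by their reads in all deposited regions of the construct. In iFLMbeta and iFLMdelta, GFP and control columns are matched by column number alone. That matching sets the ratio of each replicate and the SD, but not the mean. With this scaling a ratio near 0 or below it is typical of the deposited regions, and does not by itself show that enrichment is absent. Below, GFP and control groups are said to overlap or not by raw reads. Every GFP library of iFLMbeta and iFLMdelta held more reads over all deposited regions than any control of its construct. These were 181951 to 194811 against 52819 to 108460, and 101937 to 211113 against 71083 to 85063. Groups apart in raw reads are thus no sign of enrichment by themselves. PI in iFLMdelta had 20 and 10 GFP reads against 6 and 8, at a mean ratio of 0.02.

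Most 3' UTR regions did not reach a q-value of 0.05 or less in every replicate. A region was taken to pass when the authors' q-value was 0.05 or less in each replicate of its construct. In gFLM 13 of 930 passed (1.40%), against 0.800 percent of all deposited regions. In iFLMbeta 11 of 461 passed (2.39%), against 1.46 percent. In iFLMdelta 0 of 250 passed, against 0.410 percent of all regions. A count of 0 in 250 allows a share of up to 1.20% by counting error alone, so a share like that of all iFLMdelta regions was within reach of this count.

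The replicates differed in how many regions reached that q-value alone. In gFLM 92, 26 and 76 regions did so in replicates 1, 2 and 3, and the shallow replicate 2 gave the fewest. The numbers were 62 and 40 in iFLMbeta and 38 and 11 in iFLMdelta. In gFLM 119 regions reached it in 1 replicate and 18 in 2 replicates, and 780 in none. Without replicate 2, 25 gFLM regions would have passed. In iFLMdelta the 49 regions that reached it in 1 replicate never did so in the other.

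**Figure D1:**
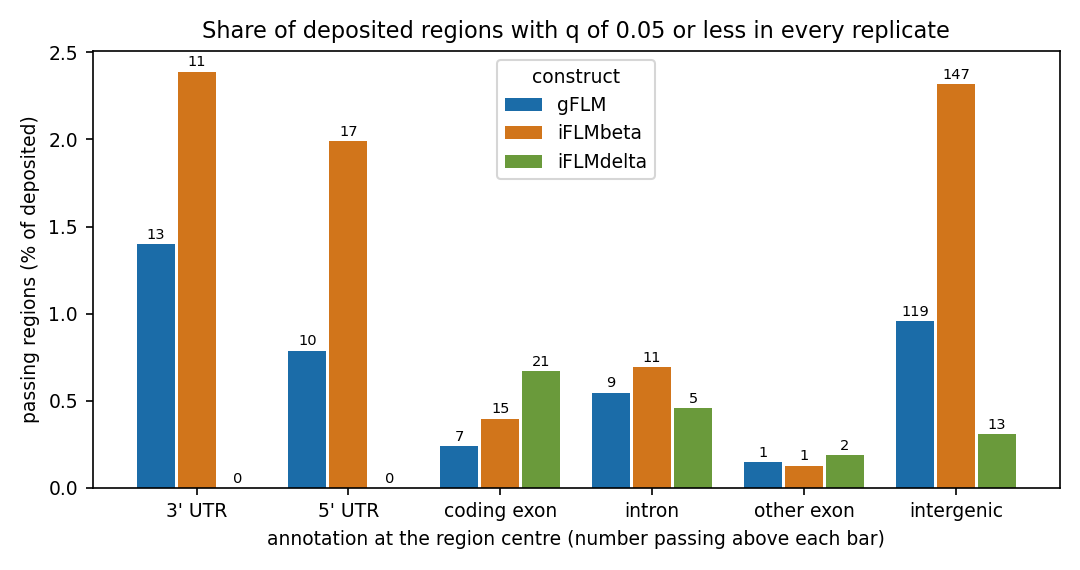
Bars give the percentage of deposited regions with an authors' q-value of 0.05 or less in every replicate, by the annotation at the region's centre (x axis) and construct (colour), with the number passing above each bar. The 3' UTR bars stand at 1.40% for gFLM and 2.39% for iFLMbeta, above the coding exon bars of 0.239% and 0.397%, while iFLMdelta has 0 in 3' UTRs and 21 in coding exons.

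By annotation, the passing share in 3' UTRs was close to that of intergenic regions in iFLMbeta (2.32%) and stood above it in gFLM (0.957%), with no test made of either difference. For 5' UTR regions the shares were 0.788% in gFLM and 1.99% in iFLMbeta. Coding exons had lower shares, 0.239% and 0.397%. In iFLMdelta 0.669% of coding exon regions passed and none of its 5' UTR or 3' UTR regions, but the 1.20% that 0 of 250 allows covers the coding exon share, so no order can be read there. The 3' UTR counts behind these shares are 13, 11 and 0 regions.

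The bulk of 3' UTR regions had ratios like those of all regions. The median over regions was -0.27 in gFLM on the log2 ratio scale, against -0.32 over all regions. It was -0.08 against -0.15 in iFLMbeta and -0.07 against -0.03 in iFLMdelta. These offsets are small beside the median SD between replicates of a single 3' UTR region, which was 0.91, 0.66 and 0.73. The signs of the 3' UTR medians themselves are not stable. Without replicate 2 these medians were 0.13 in gFLM and 0.0482 in iFLMbeta. Without replicate 1 or 2 that of iFLMdelta was 0.0649 or 0.0667. The ratio was above 0 in every replicate in 53 gFLM regions (5.70%), against 4.85 percent of all regions. The count was 75 in iFLMbeta (16.3%, against 12.9 percent) and 29 in iFLMdelta (11.6%, against 17.9 percent). The counts of iFLMbeta and iFLMdelta depend on the matching of columns, which the labels do not settle. The passing regions had a median log2 ratio of 1.93 in gFLM, with a range of 1.00 to 3.36, and of 0.78 in iFLMbeta, with a range of 0.34 to 3.21. Because q-values and ratios come from the same reads, these medians describe the passing regions and are no separate evidence.

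The 24 passing regions fell in 19 distinct 3' UTRs. Those of AT3G15470, AT5G38600 with AT5G38610, AT4G35510, AOC4 and SBP2 passed in gFLM and iFLMbeta. HSFB2A, SKU5, UGT72E1, AT3G13404, AT1G49450, AT2G30100, EXPB3 and AT5G39785 passed in gFLM alone. AT2G33420, CYP707A3, HAC1, RCAR3, AT3G23605 and AT5G53500 passed in iFLMbeta alone. Passing regions were longer than the rest, with median sizes of 369 bp in gFLM and 293 bp in iFLMbeta, against 176.5 and 152 bp for all 3' UTR regions. The same held for all passing regions of any annotation, at 349 and 276 bp.

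**Figure D2:**
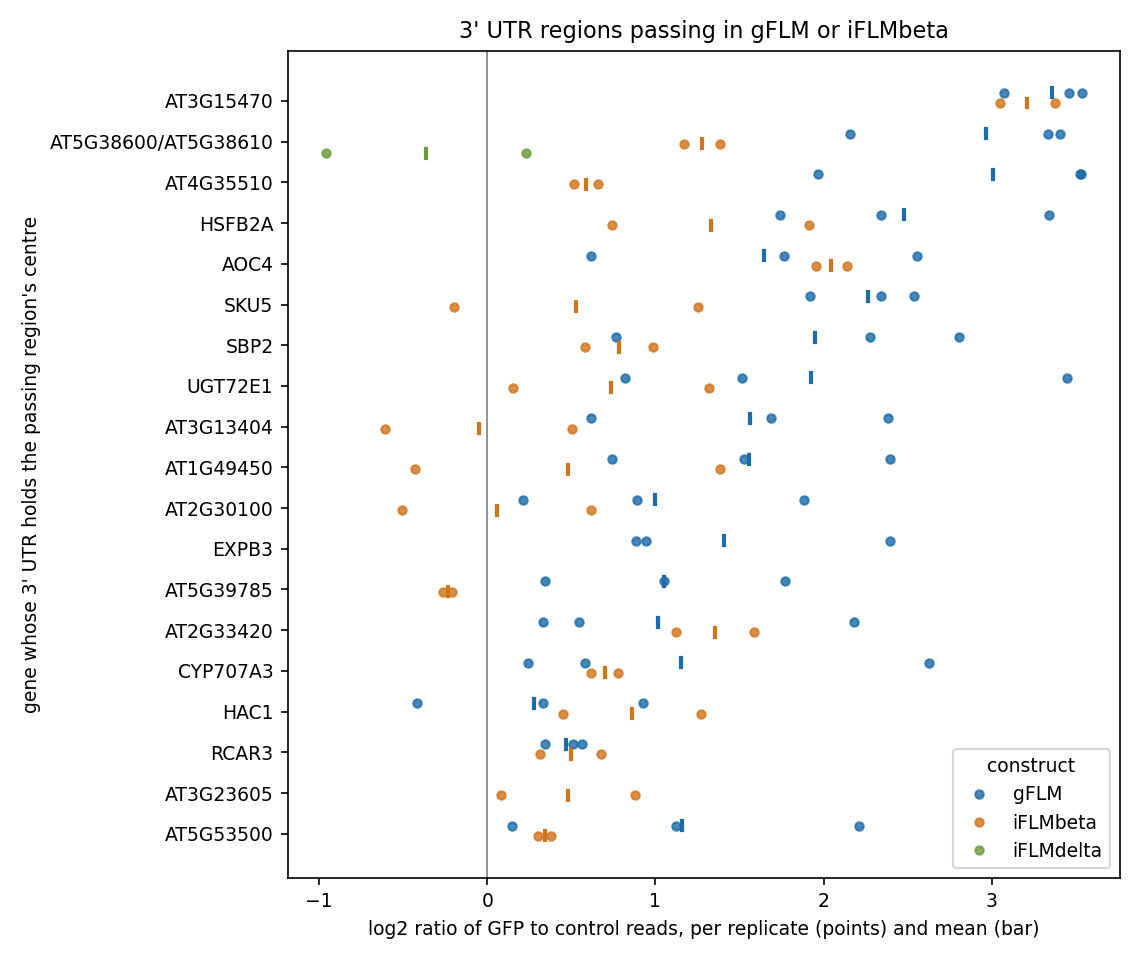
Points give the log2 ratio of GFP to control reads in each replicate and short bars the mean, for the 19 3' UTRs (y axis) with a passing region, coloured by construct. AT3G15470 has means of 3.36 in gFLM and 3.21 in iFLMbeta, while AT4G35510 has 3.01 and 0.59. iFLMdelta has an overlapping region at AT5G38600/AT5G38610 alone, with a mean of -0.37.

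The strongest region lay in the 3' UTR of AT3G15470. It ranked 2 of the gFLM list (chromosome 3, 5216238 to 5216578, build TAIR10, minus strand gene) and 1 of the iFLMbeta list (5216243 to 5216547), by the authors' rank. gFLM had 709, 251 and 209 GFP reads in replicates 1 to 3, against 34, 4 and 23 control reads. iFLMbeta had 341 and 321 GFP reads, with 22 and 8 in its controls. Every GFP library stood above every control library in raw reads in both constructs. The log2 ratio was 3.36 ± 0.25 (SD, n = 3) in gFLM. It was 3.21 ± 0.23 (SD, n = 2) in iFLMbeta. Its centre was 146 bp from the start of AT3G15460 in gFLM and 133 bp in iFLMbeta, and that gene follows on the same strand, so the region was also directly upstream of a gene. edgeR's quasi-likelihood test gave an adjusted p of 1.11e-09 in gFLM and 9.68e-16 in iFLMbeta. The iFLMbeta call held in all 9 settings run, with adjusted p up to 0.0359. The gFLM call was lost without GFP replicate 2 (edgeR adjusted p = 0.421) and without the filter on low counts (edgeR adjusted p = 1.00). Regions were called on these same libraries, so this and every GFP against control test below is circular and says how firmly the counts separate the groups.

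The second region joined the 3' ends of AT5G38600 (plus strand) and AT5G38610 (minus strand), whose 3' UTRs meet (chromosome 5, 15460518 to 15460898 in gFLM). gFLM had 242, 45 and 70 GFP reads against 9, 0 and 19 without the tag. iFLMbeta had 104 and 80 GFP reads against 25 and 8. The groups did not overlap in raw reads in either construct. The log2 ratio reached 2.97 ± 0.70 (SD, n = 3) with gFLM and 1.28 ± 0.15 (SD, n = 2) with iFLMbeta, where crossed control columns gave an SD of 0.54. The nearest start of another gene that could be placed, that of CYB-1, was 5284 bp from the centre. The adjusted p in edgeR's quasi-likelihood test was 0.00399 in gFLM, and 0.66 in iFLMbeta. Leaving out a library ended the gFLM call for each of the 3 GFP libraries (edgeR adjusted p of 0.279, 1.00 and 0.218 without replicates 1, 2 and 3) and for control replicate 3 (0.0753).

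Of the 930 gFLM regions, this was the only 3' UTR region that deposited regions of iFLMbeta and iFLMdelta both overlapped. The iFLMdelta region shared 18 bp with that of gFLM and 35 bp with that of iFLMbeta, and was centred in a coding exon of AT5G38610 (15460881 to 15461081). It held 31 and 13 GFP reads against 10 and 18 control reads. Its groups overlapped, and its log2 ratio was -0.37 ± 0.84 (SD, n = 2). With so little shared sequence it is largely a neighbouring stretch of the same locus.

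AT4G35510, on chromosome 4 (16860455 to 16860774 in gFLM), had the largest difference between gFLM and iFLMbeta of the 5 3' UTRs that passed in both. gFLM had 194, 16 and 54 GFP reads against 6, 0 and 5 control reads. In iFLMbeta the region (16860567 to 16860824) had 58 and 75 GFP reads against 22 and 13. GFP libraries were above the controls in raw reads in both. The log2 ratio was 3.01 ± 0.90 (SD, n = 3) for gFLM and 0.59 ± 0.10 (SD, n = 2) for iFLMbeta. The latter SD was 0.56 with the control columns crossed. The gFLM enrichment had an edgeR adjusted p of 0.00278, lost when GFP replicate 1, 2 or 3 was left out (0.132, 0.353 and 0.141), or control replicate 3 (0.246). The 3' neighbour AT4G35500 converges on it, and the nearest other gene start that could be placed was 4713 bp away.

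AOC4 encodes an allene oxide cyclase of jasmonate synthesis, and its 3' UTR region lay on chromosome 1 (4548546 to 4548941 in gFLM, 4548633 to 4548917 in iFLMbeta). iFLMbeta had 86 and 79 GFP reads, with 10 and 5 in the controls. gFLM had 326, 50 and 32 GFP reads against 39, 1 and 26 in the controls. The iFLMbeta groups stood apart, while in gFLM GFP replicate 3 lay below control replicate 1 in raw reads and its ratio of 0.62 was the lowest. iFLMbeta had a log2 ratio of 2.05 ± 0.13 (SD, n = 2), and gFLM of 1.65 ± 0.97 (SD, n = 3). The iFLMbeta value had an edgeR adjusted p of 0.0134, and leaving out any of the 4 libraries ended that call, with adjusted p from 0.159 to 1.00. The gFLM value had an adjusted p of 0.208, or 0.0467 with the replicate number as a block.

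SBP2 encodes a selenium-binding protein, and its relative SBP1 follows on the same strand. The region on chromosome 4 (8100423 to 8100791 in gFLM) was centred 346 bp from the start of SBP1. gFLM had 235, 41 and 22 GFP reads against 13, 1 and 16. iFLMbeta had 58 and 81 GFP reads against 21 and 11. All GFP libraries exceeded all controls in raw reads, with log2 ratios of 1.95 ± 1.06 (SD, n = 3) and 0.78 ± 0.29 (SD, n = 2). In gFLM the edgeR adjusted p was 0.0789, or 0.00699 with the block. The labels do not say how reads matching both SBP1 and SBP2 would be placed. Whether the genes match at this region was not checked, so its value is uncertain.

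The 8 3' UTRs that passed in gFLM alone had log2 ratios from 1.00 to 2.48. HSFB2A, a class B heat shock factor, had 170, 21 and 47 GFP reads against 6, 0 and 17 in the controls. These did not overlap in raw reads, and the log2 ratio was 2.48 ± 0.81 (SD, n = 3). SKU5, a GPI-anchored protein of directional root growth, had 145, 21 and 36 GFP reads against 15, 0 and 7. Its ratio of 2.27 ± 0.31 (SD, n = 3) had the second smallest spread of the 13, after AT3G15470. Their edgeR adjusted p was 0.0618 and 0.0948, and 3.04e-04 and 0.00133 with the replicate block. iFLMbeta had regions at both, at 1.33 ± 0.83 and 0.53 ± 1.03 (SD, n = 2), that did not pass.

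UGT72E1, a glucosyltransferase of lignin precursors, had 104, 22 and 40 GFP reads against 3, 2 and 17, a log2 ratio of 1.93 ± 1.36 (SD, n = 3). Replicate 1 at 3.45 was far above replicates 2 and 3, at 0.82 and 1.52. EXPB3, a beta-expansin of the cell wall, had 75, 23 and 22 GFP reads against 5, 2 and 14, at 1.41 ± 0.86 (SD, n = 3). It was without an overlapping iFLMbeta region. AT3G13404 had 112, 13 and 43 GFP reads against 8, 0 and 35, so its groups overlapped, and the start of MIR169a, a microRNA gene, was 684 bp from its centre. The ratios of AT1G49450, AT2G30100 and AT5G39785 were 1.55 ± 0.83, 1.00 ± 0.84 and 1.05 ± 0.71 (SD, n = 3). AT5G39785 was just inside the threshold with an authors' q-value of 0.0493 in replicate 2. AT5G59050 was just outside it at 0.0573, with a ratio of 1.57 ± 1.02 (SD, n = 3). In iFLMbeta, UGT72E1, AT3G13404, AT1G49450 and AT2G30100 had 0.74 ± 0.82, -0.05 ± 0.79, 0.48 ± 1.28 and 0.05 ± 0.80 (SD, n = 2, columns as numbered). AT5G39785 had -0.24 ± 0.04 there, in a region centred in a coding exon. None of these iFLMbeta regions passed.

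The 6 3' UTRs that passed in iFLMbeta alone had log2 ratios from 0.34 to 1.36. AT2G33420 had 26 and 29 GFP reads against 4 and 3 in the controls, at 1.36 ± 0.33 (SD, n = 2), with the start of AT2G33430 145 bp away on the same strand. HAC1, a histone acetyltransferase, had 25 and 32 GFP reads against 5 and 6, at 0.86 ± 0.58, with the start of AT1G78995 462 bp away. GFP libraries were above the controls in raw reads in each. CYP707A3, which breaks down abscisic acid, had 36 and 36 GFP reads against 11 and 6, at 0.70 ± 0.11. RCAR3, an abscisic acid receptor, had 37 and 32 against 16 and 5, at 0.50 ± 0.25. AT3G23605 and AT5G53500 were lowest, at 0.48 ± 0.56 and 0.34 ± 0.05 (SD, n = 2). The SD of AT5G53500 was 0.59, above its mean, with the control columns crossed, and those of AT2G33420, HAC1 and CYP707A3 were 0.68, 1.20 and 0.25. gFLM had overlapping regions at all of these except AT3G23605, with means from 0.28 at HAC1 to 1.16 at AT5G53500, and none of them passed there. AT5G53500 missed in gFLM replicate 2 alone, with an authors' q-value of 0.0573. Its gFLM mean and that of CYP707A3 (1.15) were above their iFLMbeta means. The gFLM means of AT2G33420, HAC1 and RCAR3 were below theirs.

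In the fit over all regions, few of these differences passed. Of the 930 gFLM regions, 247 passed the filter on low counts, and edgeR called 3 of them higher with GFP (1.21%), against 0.709 percent of all regions tested. They were AT3G15470, AT5G38600/AT5G38610 and AT4G35510, and none was lower. DESeq2 gave 28 regions an adjusted p and called 8 (28.6%), against 14.7 percent of all regions with one. With the replicate number as a block, 11 were called (4.45%), against 2.63 percent of all regions. These were the 3 above with HSFB2A, AOC4, SKU5, SBP2, UGT72E1, AT1G49450, EXPB3 and AT5G59050. In iFLMbeta 280 regions passed the filter and 2 were called, AT3G15470 and AOC4 (0.714%), against 0.341 percent. In iFLMdelta 137 passed the filter and 0 were called by edgeR or by DESeq2, against 0.00 percent of all regions. There 0 had an unadjusted p under 0.05 in either. Of all iFLMdelta regions tested, 0.130 percent had such a p and were higher with GFP, and 0.0434 percent were lower, in edgeR, and 0.0217 percent had such a p in DESeq2.

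None of the best ranked 3' UTR regions of iFLMdelta passed. Their ratios per replicate depend on how GFP and control columns are matched, which the labels do not settle. AT5G12150, at rank 59, had 46 and 17 GFP reads, 8 and 17 control reads, and log2 ratios of 1.07 and -0.52. HDA08, a histone deacetylase, had 25 and 11 GFP reads against 2 and 5, and ratios of 1.80 and 0.48. It had the highest mean of the 250 regions, 1.14 ± 0.94 (SD, n = 2), and its groups did not overlap in raw reads. APO4 had 27 and 26 GFP reads against 29 and 7, and QC, a glutaminyl cyclase, had 17 and 17 against 11 and 3. As numbered, the SDs of APO4, QC and AT1G61667 were 1.87, 1.68 and 2.15. With the control columns crossed they were 0.46, 0.19 and 0.96, so no difference between replicates can be read from them. Their mean ratios, which do not depend on the matching, were -0.09, 0.46 and 0.66.

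Where the constructs could be compared, no 3' UTR region was called as differing between them after adjustment, with or without the replicate block. Few shared regions of any annotation had an unadjusted edgeR interaction p under 0.05. They were 36 of 1954 for gFLM and iFLMbeta, 2 of 548 for iFLMbeta and iFLMdelta, and 6 of 548 for gFLM and iFLMdelta. With so few, 0 calls do not show that the constructs were alike. gFLM and iFLMbeta shared 108 regions that were in a 3' UTR in either table, which held 82 gFLM regions (8.82%) and 86 iFLMbeta regions (18.7%). An interaction of construct and GFP in edgeR tested 91 of them and called 0, against 0.00 percent of all 1954 shared regions tested. DESeq2 called 0. That fit had no replicate block, although the gFLM libraries carry replicate numbers. With the block it also called 0, with an unadjusted p under 0.05 in 4. Without the block, an unadjusted edgeR p under 0.05 was found in 2 of them, AT4G35510, whose enrichment was lower in iFLMbeta (interaction log2 fold change -2.75, edgeR adjusted p = 0.999), and AT5G38600/AT5G38610 (-1.45, edgeR adjusted p = 0.999). At AT3G15470 the interaction was -0.16 (edgeR adjusted p = 0.999).

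**Figure D3:**
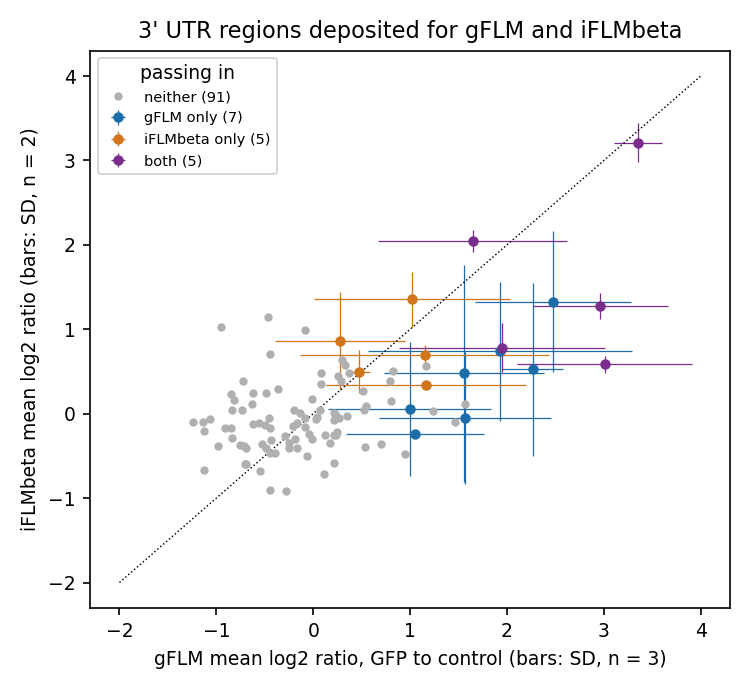
Each point is a shared region in a 3' UTR in either table, with its mean log2 GFP to control ratio in gFLM (x axis) and iFLMbeta (y axis). Bars on passing regions are the SD over 3 and 2 replicates, colour marks where it passed, and the dotted line is equality. AT3G15470 lies near the line at 3.36 and 3.21, and AT4G35510 far to the right of it at 3.01 and 0.59.

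iFLMbeta and iFLMdelta, grown alike, shared 19 such regions, with 15 of the iFLMbeta (3.25%) and 12 of the iFLMdelta 3' UTR regions (4.80%). The interaction test covered 16 and called 0, against 0.00 percent of all 548 tested. An unadjusted p under 0.05 was found in 1, AT5G38600/AT5G38610 (-1.74, edgeR adjusted p = 1.00). The iFLMbeta and iFLMdelta regions there shared only 35 bp, so largely different stretches were compared. DESeq2 called 0. AGO10, an Argonaute protein, passed in neither and had mean log2 ratios of 0.37 ± 0.03 in iFLMbeta and -0.38 ± 0.94 in iFLMdelta (SD, n = 2; edgeR interaction adjusted p = 1.00). With control columns crossed these SDs were 0.23 and 0.56.

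gFLM and iFLMdelta shared 39 such regions, which held 27 gFLM (2.90%) and 32 iFLMdelta 3' UTR regions (12.8%). Of 32 tested 0 were called, against 0.00 percent of 548, and DESeq2 and the fit with the replicate block called 0. An unadjusted p under 0.05 was found in 2. In EPF2, a secreted peptide that limits stomatal development, the ratio was 1.29 ± 0.69 (SD, n = 3) in gFLM, where the region was centred in the coding exon, and -0.86 ± 1.86 (SD, n = 2) in iFLMdelta (interaction -2.58, edgeR adjusted p = 1.00). The iFLMdelta SD was 0.12 with the control columns crossed, so its spread is not known from these columns. In AT5G38600/AT5G38610 the interaction was -3.49 (edgeR adjusted p = 1.00). There the gFLM and iFLMdelta regions shared only 18 bp, so largely different stretches were compared. Regions present in 1 table alone were not compared, since the files hold no reads for them in the other constructs.

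A start of another gene lay within 1 kb of the centre of 234 gFLM (25.2%), 108 iFLMbeta (23.4%) and 53 iFLMdelta 3' UTR regions (21.2%). Over all deposited regions, where an intergenic region counts the start of every gene, the shares were 41.9%, 25.3% and 19.3%. Starts could be placed for 22452 of 29553 genes, so the distances are upper bounds and the shares within 1 kb lower bounds. Of the 19 passing 3' UTRs, 7 were that close to another gene's start: AT3G15470, AT2G30100, AT2G33420, SBP2, HAC1, AT3G13404 and AT3G23605. By construct the passing regions within 1 kb were 4 of 13 in gFLM (30.8%) and 5 of 11 in iFLMbeta (45.5%). For passing regions of any annotation, where an intergenic region counts the start of every gene, the shares were 47.8% and 45.0%. Of the passing gFLM regions AT2G30100 was closest to a start, 143 bp from that of AT2G30105. The start next to AT3G23605, 882 bp away, was that of the phosphatase gene DSPTP1.

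Nearness to a start went with little difference in the typical ratio. In gFLM the median log2 ratio was -0.26 for 3' UTR regions within 1 kb of another start and -0.28 for those farther away. The medians were -0.07 and -0.08 in iFLMbeta and -0.05 and -0.07 in iFLMdelta. The passing share was 1.71% near and 1.29% far in gFLM, from 4 and 9 regions. In iFLMbeta it was 4.63% and 1.70%, from 5 and 6 regions, and no test was made of these small counts. Passing regions were also found far from any other start that could be placed, with SKU5 at 5770 bp, RCAR3 at 5867 bp and AT5G38600/AT5G38610 at 5284 bp.

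**Figure D4:**
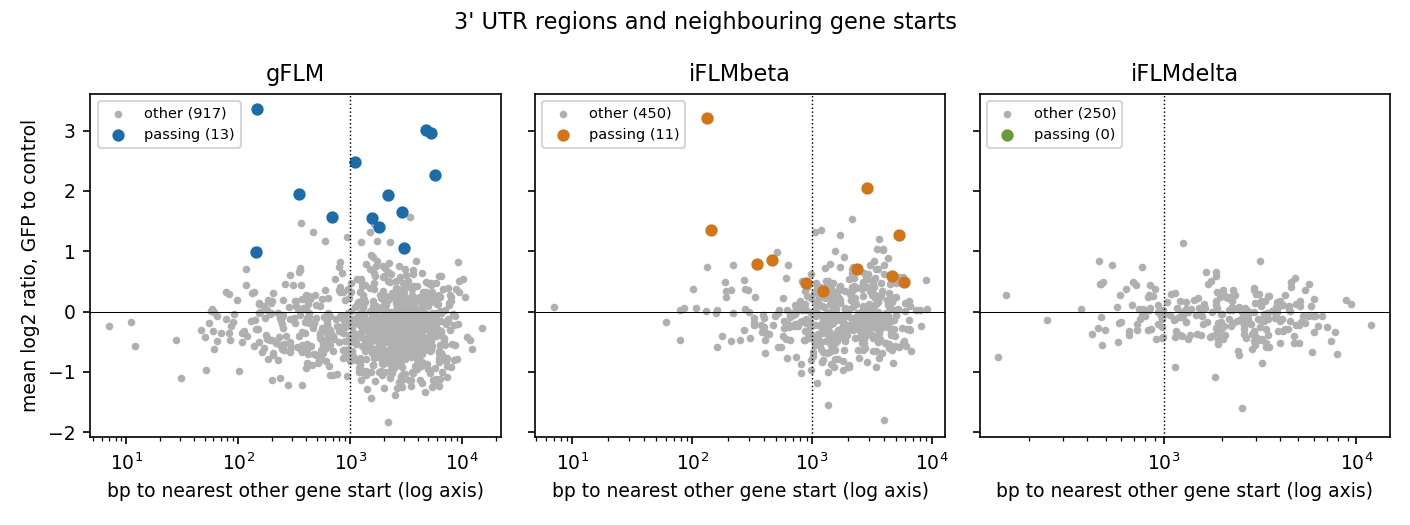
Each point is a 3' UTR region, with the distance from its centre to the nearest start of another gene (x axis, log scale, bp) and its mean log2 GFP to control ratio (y axis), coloured where it passed. The dotted line marks 1000 bp. Of the passing regions 4 of 13 in gFLM and 5 of 11 in iFLMbeta lie to its left, and iFLMdelta has none.

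The strand of the neighbour on the 3' side could be read for 836 gFLM, 446 iFLMbeta and 242 iFLMdelta regions. The neighbour pointed away, so that its start faced the 3' UTR, in 420, 247 and 134 of them, and converged, with its end facing the 3' UTR, in 416, 199 and 108. Among the 19 passing 3' UTRs, 13 had a tandem neighbour and 5 a convergent neighbour, and the remaining region was that of AT5G38600/AT5G38610, which spans both convergent ends. The passing share was 1.90% for tandem and 0.962% for convergent regions in gFLM, and 2.83% and 1.51% in iFLMbeta. These rest on 8 and 4 regions and on 7 and 3, and were not tested. Where the gene's own transcript end could be placed, the median distance from the centre to it was 115 bp in gFLM (499 regions), 151.5 bp in iFLMbeta (280) and 179 bp in iFLMdelta (160).

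None of the 3' UTR regions in or next to a listed flowering, floral organ, light or clock gene passed. They were so few that 0 passing is near the overall passing shares and is no result about these genes. In gFLM 5 regions lay in or next to a gene of a list of 42 flowering time genes, 3 for 12 circadian clock genes and 2 for 20 light and temperature genes. A region was taken as next to a listed gene when that gene flanked it on either side, at any distance. The best ranked were in PFL (0.14 ± 0.21), in AT5G61390, whose 3' end meets that of TOC1 (-0.23 ± 0.55), and in CLASP beside PIL5 (0.32 ± 0.79, SD, n = 3 for each). PFL encodes a ribosomal protein. Its 3' neighbour was AT1G22790, and the listed gene GI lay beyond the other end of PFL. iFLMbeta had 2 regions for 15 floral organ genes, 1 for flowering time and 1 for light and temperature, and iFLMdelta the same numbers. In iFLMbeta the best was AT5G15802, next to the MADS-box gene SEP1, at 0.73 ± 0.27 (SD, n = 2), where 16 and 14 GFP reads stood against 4 and 2. For the other lists the best ranked were AGP16, flanked by SPA1 (0.35 ± 0.86), and U11/U12-31K, flanked by FLD (-0.24 ± 1.09, SD, n = 2 for each). In both the listed gene lay beyond the end away from the 3' UTR. In iFLMdelta the region in the 3' UTR of PI, a MADS-box gene of petals and stamens, had 20 and 10 GFP reads against 6 and 8 and a ratio of 0.02 ± 0.36 (SD, n = 2). PHYB, the red light receptor, had -0.13 ± 0.71 there. FAS1, a chromatin assembly factor subunit, had 17 and 10 GFP reads against 6 and 7, and log2 ratios of 0.05 and -0.06. Its 3' neighbour was GLC, and the listed gene FT lay beyond the other end of FAS1.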

How the data were processed

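Each construct has a deposited table of regions on build TAIR10, per the submitters' processing notes. Per the file headers the authors give raw read counts for every library and 1 adjusted q-value for every replicate. They also deposited a log2 rank product and the rank it gives, a score. The aligner and peak caller were not stated, and libraries had 18 PCR cycles per the labels' protocols. Members and gene lists were chosen with earlier results of these data known. Regions off chromosomes 1 to 5 (14) were left out. edgeR 4.0.16 in R 4.3.3 (quasi-likelihood, TMM, filterByExpr, adjusted over all regions at 0.05) compared GFP with control libraries and, at regions sharing 1 bp or more (GenomicRanges 1.54.1), constructs by interaction. It was tested on simulated data. DESeq2 1.42.0, other filters, thresholds, scalings and left-out libraries were tried. In gFLM each GFP library deviated most like the control of its number (correlations of 0.522, 0.243 and 0.117). GFP replicate 3 was nearly as close to control replicate 2 (0.0756), so pairing by number is not settled there. Gene starts came from the tables' own distances for 22452 of 29553 genes, and 274, 28 and 23 members had rows cut short before the right-hand distance. Symbols (RefSeq, TAIR10.1) matched 14386 of 14493 genes. Intervals cover counting error only. Exact permutation of 3 against 3 libraries cannot go below p = 0.1. Named regions were all passing members, the 5 best ranked per construct, all edgeR calls, the lowest interaction p-values and the best ranked near each list. Columns of per-sample values left unmapped numbered 0.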

Additional observations from a re-analysis of the deposited data

How the results depend on the processing

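The number of edgeR calls in gFLM 3' UTRs was 3. DESeq2 called 8, the replicate block gave 11, a fit with no low-count filter gave 0 and a fit without both libraries of replicate 2, chosen after seeing the data, gave 1. Leaving out 1 library gave 0 (without GFP replicate 2) to 7 (without control replicate 1), and the cause was not tested. For iFLMbeta the count of 2 fell to 1 without the filter, with the replicate block and without any 1 library. Same-numbered libraries of that construct share only a number, with a correlation of -0.0919. iFLMdelta stayed at 0 under each setting run, including its control columns crossed in the block (correlation of -0.204 as numbered), and the interaction counts stayed at 0.

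Passing regions numbered 7 at a q-value of 0.01 in gFLM and 25 on replicates 1 and 3 alone. They numbered 6 at 0.01 and 22 at 0.1 in iFLMbeta, and 2 at 0.1 in iFLMdelta. With 5 reads added, the median was -0.50 for iFLMbeta and -0.28 for iFLMdelta, and TMM scaling put iFLMdelta at -0.13. Leaving out a replicate gave medians from -0.0840 to 0.0482 in iFLMbeta and from 0.0649 to 0.0667 in iFLMdelta. In gFLM they ran from -0.48 to 0.13, above 0 without replicate 2. With a distance of 2000 bp, 11 of the 19 passing 3' UTRs had another gene start nearby in place of 7. With control columns crossed, the median SD of passing iFLMbeta regions was 0.52 in place of 0.23. Named regions kept direction and call in 391 values, gained a call in 17, lost it in 20 and moved in 19. The planned count of CArG boxes was not run, since no genome sequence was used here. Low counts limit all single-region values.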
